A study of Homo sapiens with 18 samples.

Results

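RNA levels were compared between UMRC2 cells carrying the hairpin shFTO#2, directed against FTO, and UMRC2 cells carrying shControl, for 560 genes whose shFTO#2 values could be tied back to a gene. In the deposited table the 2 shFTO#2 columns held values on the first 766 lines alone, and these did not follow the order of the 1242 genes named in the table. A pair of values was given to a gene when FPKM × gene length × library total came out as a whole number of reads in both libraries, within 1e-05. FPKM scales the reads of a gene by its length and by the library total, so levels of different genes can be compared. The longest chain of such matches that ran in the same order in both lists was kept, and only genes unique on it, which left 561. HDAC9 was then set aside, because its shFTO#2 to shControl ratio of FPKM was 4.93 on the log2 scale and the authors' deposited table gave 0.17 on the same line. The 560 genes are 73.1% of the 766 shFTO#2 entries and 45.1% of the 1242 listed genes. Each of the 1242 was called for shFTO#5 in the authors' deposited table, so the 560 are genes called with both hairpins, and a gene called with shFTO#2 alone could not be named.

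The 6 RNA-seq libraries comprised 2 of shFTO#2, 2 of shFTO#5 (a second hairpin against FTO) and 2 of shControl, and 12 further m6A libraries of the series were not analysed here. UMRC2 is an established human line of clear cell renal carcinoma without working VHL, so every group, controls included, shares that loss and its constitutively active hypoxia-inducible factors. All cells were grown overnight under the same medium and gas conditions before total RNA was taken. Neither separate cultures for the replicates nor clonal selection of the cells carrying a hairpin is recorded in the labels, so the spread behind every error and p-value is that between libraries and could be technical. The series' design text numbers the FTO hairpins 1 and 2, whereas the sample titles name them shFTO#2 and shFTO#5, and the titles were followed. The line is a single cell type, and in bulk RNA fewer cells with a transcript and less of it per cell cannot be told apart. Of 10 markers of renal epithelium and clear cell carcinoma, 6 were listed in the table and 4 of those were re-matched (PAX8, PAX2, KRT18 and LRP2). None of the 3 immune, 3 endothelial and 4 fibroblast and pericyte markers was listed, but a table of called genes cannot show that a marker is absent.

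FTO is an enzyme of the AlkB family that erases the methyl mark of N6-methyladenosine (m6A) on RNA, a mark read by proteins that govern transcript decay, splicing and translation. Clear cell renal carcinomas typically lose VHL, which leaves hypoxia-inducible factors stable and drives programmes of growth factor signalling, glycolysis and lipid storage. Hairpin RNAs lower their target by guiding its degradation, and a pair of hairpins with different sequences is commonly used because each can also act on transcripts other than its target.

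The re-matched values could be set against a measure that the whole reads and line order had not used, the authors' own fold change on the same line. The authors' values had first been turned round, all alike, to run knockdown over control. For all 560 genes the sign was the same, and the log2 ratio of the FPKM means lay a median of 0.0276 from the authors' value, with 519 genes within 0.15. Distances ran from -0.55 to 0.46 on the log2 scale. HDAC9 had been set aside by this same measure, so a distance over 1 could not appear among the 560. Only 3 values already stood on the line of their own gene, and the others had moved by up to 477 lines (median 276). One further entry gave whole reads for both YWHAZ and MICALL2. Its ratio lay -0.02 from the authors' log2 value if read as YWHAZ and 3.86 if read as MICALL2, so it sits with YWHAZ, but only genes unique by whole reads were kept and it is not among the 560. The least covered re-matched gene had 82 reads in a library, and the median gene had 2544 and 2308 reads in the shFTO#2 libraries and 2488.5 and 2265 reads in the shControl libraries. Library totals were 17448921 and 15585908 reads for shFTO#2, 14548533 and 16806852 for shFTO#5, and 18184675 and 16247771 for shControl.

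FTO itself was lower in both shFTO#2 libraries than in both shControl libraries. FTO (ENSG00000140718; GRCh38 chromosome 16, 53701692 to 54158512; a protein-coding gene on the plus strand) had 0.882 and 0.720 FPKM with shFTO#2, 0.555 and 0.526 FPKM with shFTO#5 and 1.99 and 2.37 FPKM with shControl. Behind these stood 181 and 132 reads with shFTO#2, 95 and 104 with shFTO#5 and 426 and 454 with shControl. The shFTO#2 mean of 0.801 ± 0.114 FPKM was 36.7% of the shControl mean of 2.18 ± 0.271 FPKM (SD, n = 2 each). The libraries did not overlap, which was so for all 560 genes. An exact two-sided permutation test gave p = 0.333, the smallest that 2 libraries against 2 allow. On the log2(FPKM + 1) scale, where changes of so low a gene come out too small, FTO fell by 0.82 ± 0.07 (SE). The difference in FTO between shFTO#2 and shFTO#5, 0.22 ± 0.07, missed the threshold of limma's moderated test across the 560 genes (adjusted p = 0.0728). That difference did pass on whole reads with voom (adjusted p = 0.0315), with a pseudocount of 0.1 (adjusted p = 0.0332) and without shFTO#2 replicate 2 (adjusted p = 0.0139).

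Across the 560 genes, 352 were higher and 208 lower with shFTO#2 than with shControl, all past limma's threshold at a Benjamini-Hochberg adjusted p under 0.05. This is 62.9% higher and 37.1% lower, and 100% called, because the table lists only genes that the authors had already called, so the count is no new finding. The number of genes the authors tested was inferred from the ratio of their adjusted to their raw p-values as 10038, of which the 766 shFTO#2 calls are 7.63%, 4.17% higher and 3.46% lower. Changes were mostly small: the median absolute log2 change was 0.31, 8 genes differed at least 2-fold between FPKM means, 73 at least 1.5-fold, and 203 less than 1.2-fold. In every one of the 560 genes (100% of them) the shFTO#2 and shControl libraries did not overlap. The median SD between replicates was 0.03 in both groups on the log2(FPKM + 1) scale. Subtracting from each library its own median over the 560 genes (centring) moved the log2 changes by -0.15, so that 192 genes were then called higher and 208 lower, 48.0% higher in place of 62.9%. That median is of called genes only, 352 of them higher, so centring can remove a shared rise as well as a difference in scaling. Quantile normalization moved the median by -0.09 and gave 266 higher and 204 lower. It gives each library the same set of values by rank, so a gene that keeps its rank stands at 0 and cannot pass.

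**Figure D1:**
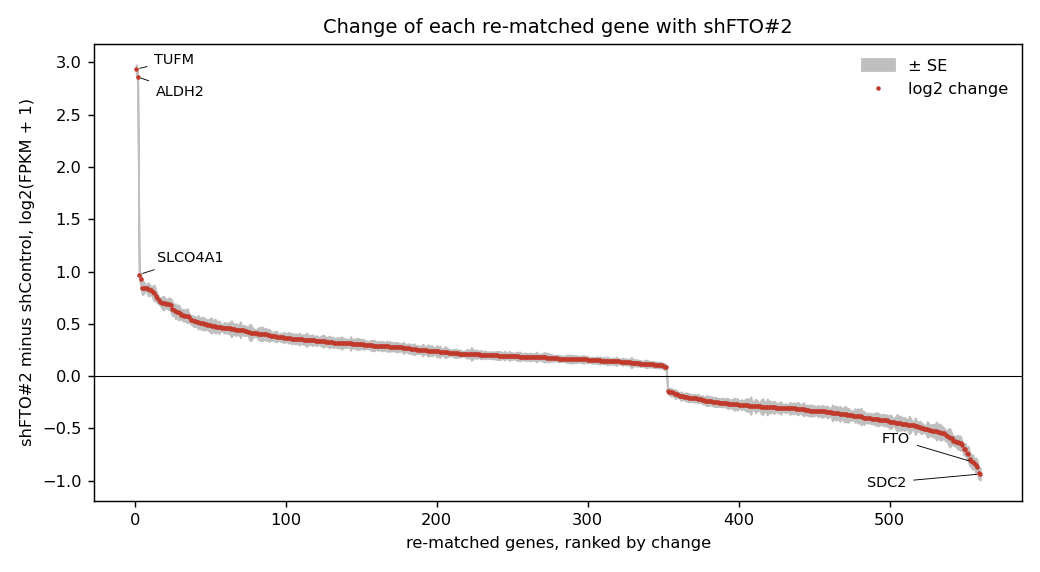
Log2 change of each of the 560 re-matched genes, shFTO#2 minus shControl on the log2(FPKM + 1) scale (y axis), ranked from highest to lowest (x axis), with the SE from limma as a grey band. TUFM and ALDH2 stand at 2.93 and 2.86, SLCO4A1 next at 0.97, and SDC2 lowest at -0.94; no gene lies close to 0, since only called genes were listed.

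Among these called genes, lowly expressed ones had larger changes than abundant ones. Split in 3 groups by mean FPKM over all 6 libraries, the 187 genes from 1.17 to 19.96 FPKM had a median absolute log2 change of 0.41 and 52 of them moved at least 1.5-fold. The 187 genes from 73.3 to 6101 FPKM had a median of 0.20 and 6 such genes. Genes that were higher with shFTO#2 made up 51.3% of the low group, 65.1% of the middle group and 72.2% of the high group. By gene length, 66.3% of the shortest genes (300 to 2811 bases), 63.4% of those of middle length and 58.8% of the longest (4611 to 24828 bases) were higher. Among chromosomes with at least 10 re-matched genes, the share of higher genes ran from 41.7% on chromosome 14 (5 of 12) to 89.5% on chromosome 15 (17 of 19). These sizes and shares describe called genes only and were given no test. A gene with few reads needs a larger change to be called, so the selection alone can give larger changes at low levels.

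TUFM and ALDH2, both mitochondrial, rose far more with shFTO#2 than any other re-matched gene. TUFM, the mitochondrial elongation factor Tu, which delivers aminoacyl-tRNA to mitochondrial ribosomes (chromosome 16, 28842411 to 28846408, minus strand), had 232 and 235 FPKM with shFTO#2, 242 and 248 with shFTO#5 and 28.3 and 31.1 with shControl. ALDH2, the mitochondrial aldehyde dehydrogenase that clears acetaldehyde (chromosome 12, 111766887 to 111817529, plus strand), had 58.4 and 56.2 FPKM with shFTO#2, 55.1 and 57.8 with shFTO#5 and 6.76 and 7.32 with shControl. Every knockdown library lay several-fold above every control library for both genes. The fold between means was 7.86 for TUFM and 8.14 for ALDH2 with shFTO#2. SLCO4A1, the next largest rise on the log2(FPKM + 1) scale, was 1.98-fold. In all, 4 genes rose at least 2-fold between FPKM means. The hairpins did not differ detectably for TUFM (-0.07 ± 0.04, adjusted p = 0.332, limma) or ALDH2 (0.02 ± 0.05, adjusted p = 0.806). GFM1, another mitochondrial elongation factor, rose by 0.26 ± 0.05, and had 21.3 and 22.2 FPKM with shFTO#2 against 19.01 and 17.2 with shControl. It did not pass after centring (0.11, adjusted p = 0.0886, limma). ALDH1L1, a cytosolic folate enzyme, fell by 0.60 ± 0.05, and ALDH1A1, the retinal dehydrogenase, fell by 0.38 ± 0.02, so the 3 re-matched aldehyde and alcohol dehydrogenases did not move together.

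The next group of rises was led by genes of the cell surface and of growth. SLCO4A1, an organic anion transporter, had 76.96 and 79.5 FPKM with shFTO#2 against 38.5 and 40.3 with shControl. PLAU, the urokinase that activates plasminogen, had 10.6 and 11.2 FPKM against 5.01 and 5.49, and its receptor PLAUR 11.9 and 11.5 FPKM against 6.22 and 6.42. Both parts of the urokinase pair were thus clear of the control libraries, as all 560 genes were, with log2 changes of 0.93 ± 0.06 and 0.80 ± 0.07. RRM2, the regulated subunit of ribonucleotide reductase, which makes deoxynucleotides, had 50.8 and 50.1 FPKM against 28.2 and 27.1 (log2 change 0.84 ± 0.04). HMGA2, an oncofetal chromatin protein, had 8.33 and 8.11 FPKM against 3.92 and 4.36 (0.84 ± 0.06). FOSL1, a FOS-family subunit of the transcription factor AP-1, stood at a much higher level, 205 and 200.4 FPKM against 110.2 and 119 (0.82 ± 0.04). In each of these genes both shFTO#2 libraries exceeded both control libraries by more than the gap between replicates.

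The rest of the 15 largest rises lay between 0.74 and 0.85 on the log2 scale. They were CCAT1, a long noncoding RNA first described in colon cancer (0.85 ± 0.07), PVR, an adhesion receptor of the nectin family (0.84 ± 0.03), CDCP1, a membrane substrate of Src kinases (0.83 ± 0.06), SQRDL, the mitochondrial sulfide oxidoreductase (0.80 ± 0.06), HAS3, a hyaluronan synthase (0.77 ± 0.05), and TM4SF1, a transmembrane protein of many carcinomas (0.74 ± 0.05). Of the 15, CCAT1 showed the widest gap between shFTO#2 replicates in FPKM relative to its level, at 15.6 and 13.5 FPKM, yet both values were above the shControl values of 7.90 and 7.39.

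Falls with shFTO#2 were led by a cell surface proteoglycan and a transcriptional repressor. SDC2, syndecan-2, a heparan sulfate carrier that presents growth factors, had 10.3 and 10.8 FPKM with shFTO#2 against 21.9 and 20.3 with shControl (log2 change -0.94 ± 0.06). MSC, musculin, a basic helix-loop-helix repressor, had 40.3 and 45.1 FPKM against 79.4 and 84.5 (-0.93 ± 0.05). MARCKS, which protein kinase C phosphorylates at the membrane, had 25.04 and 28.1 FPKM against 47.1 and 51.1 (-0.86 ± 0.06). All 3 genes were at close to 50% of the control level, at 49.99% for SDC2, 52.1% for MSC and 54.1% for MARCKS. By ratio of means the lowest of the 560 after FTO was FGFR2, a fibroblast growth factor receptor, at 44.1% of control, with 1.75 and 1.75 FPKM against 3.90 and 4.04. NR0B1, an orphan nuclear receptor that represses other nuclear receptors, had 39.05 and 37.9 FPKM against 67.97 and 70.6 (-0.83 ± 0.04), and ACOT11, an acyl-CoA thioesterase, 9.14 and 10.2 FPKM against 17.5 and 17.9 (-0.81 ± 0.06).

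Among the other large falls were DSC2, a desmosomal cadherin (-0.79 ± 0.07), GABARAPL1, a protein of autophagosome membranes (-0.74 ± 0.07), and CYP4F11, a fatty acid hydroxylase of the cytochrome P450 family (-0.74 ± 0.04). SFRP4, a secreted Wnt antagonist, fell by 0.70 ± 0.06, CCDC64, a cargo adaptor, by 0.70 ± 0.06, and DNMT3B, a de novo DNA methyltransferase, by 0.64 ± 0.07. AKR1B10, an aldo-keto reductase, remained abundant at 607 and 588 FPKM with shFTO#2 against 946 and 941 with shControl (-0.66 ± 0.03), and JUND, a JUN-family AP-1 subunit, had 156 and 182 FPKM against 256 and 269 (-0.63 ± 0.06). The 2 shFTO#2 libraries of JUND were further apart than those of AKR1B10, but neither reached a control value.

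**Figure D2:**
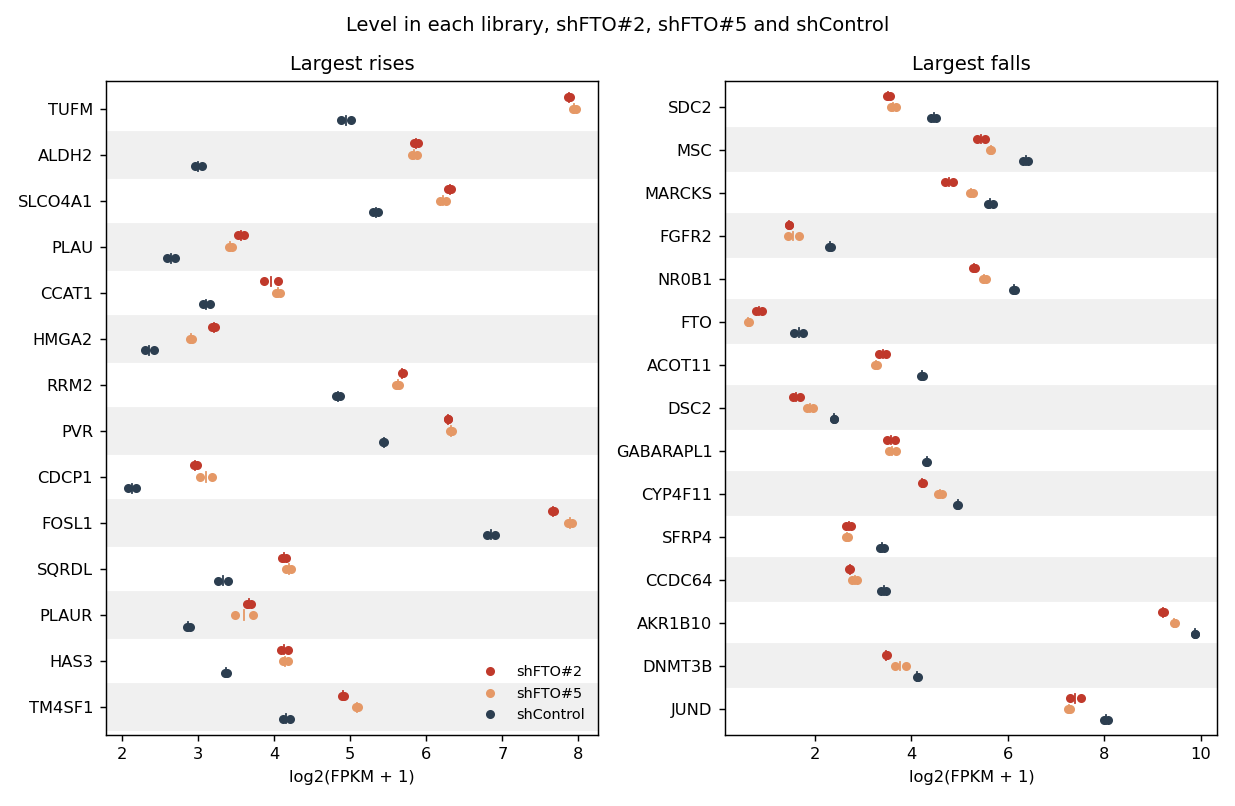
Level of genes among the 15 largest rises (left) and of the 15 largest falls (right) in each library, as log2(FPKM + 1) on the x axis, with 1 row per gene; within a row shFTO#2 is on top, then shFTO#5, then shControl, points are libraries and ticks are group means. Both shFTO#2 points lie on one side of both shControl points in every row, as for all 560 genes, and TUFM and ALDH2 show the widest gaps.

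Genes were next grouped by 41 lists of pathways and cell types, described by counts and medians beside the same over all 560 genes (62.9% higher, median log2 change 0.17). Of the NRF2 antioxidant list, 16 of 17 re-matched genes fell and 1 rose, with a median log2 change of -0.40. SLC48A1 alone was higher after centring and after quantile normalization too, although FTL stood at 0 under the second. NRF2 is the transcription factor that turns on detoxifying and glutathione genes when its inhibitor KEAP1 is modified. The largest falls after NR0B1, CYP4F11 and AKR1B10 were those of OSGIN1, an oxidative stress-induced growth inhibitor, at 52.9 and 55.04 FPKM against 80.9 and 85.9, and of HMOX1, heme oxygenase, at 298 and 309 FPKM against 422 and 441. For both, the knockdown libraries were well below the controls (-0.62 ± 0.04 and -0.51 ± 0.03). SLC7A11, the cystine importer, fell by 0.48 ± 0.05, PTGR1, prostaglandin reductase, by 0.47 ± 0.03, AKR1C2, an aldo-keto reductase, by 0.47 ± 0.04 and UGDH, which makes UDP-glucuronate, by 0.40 ± 0.03. GCLC, the catalytic subunit that starts glutathione synthesis, had 15.2 and 15.5 FPKM against 19.4 and 19.01 (-0.31 ± 0.04). Among the smallest falls was that of FTL, ferritin light chain (-0.14 ± 0.03), the most abundant of all re-matched transcripts at 5895 and 5985 FPKM with shFTO#2 against 6540.2 and 6559 with shControl. SLC48A1, a heme transporter, was the 1 member that rose (0.20 ± 0.04), and it did not pass after centring (0.05, adjusted p = 0.245, limma). AKR1C1, AKR1C2, AKR1B1 and AKR1B10 are close paralogs, and no source used here says how reads shared between them were counted.

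**Figure D3:**
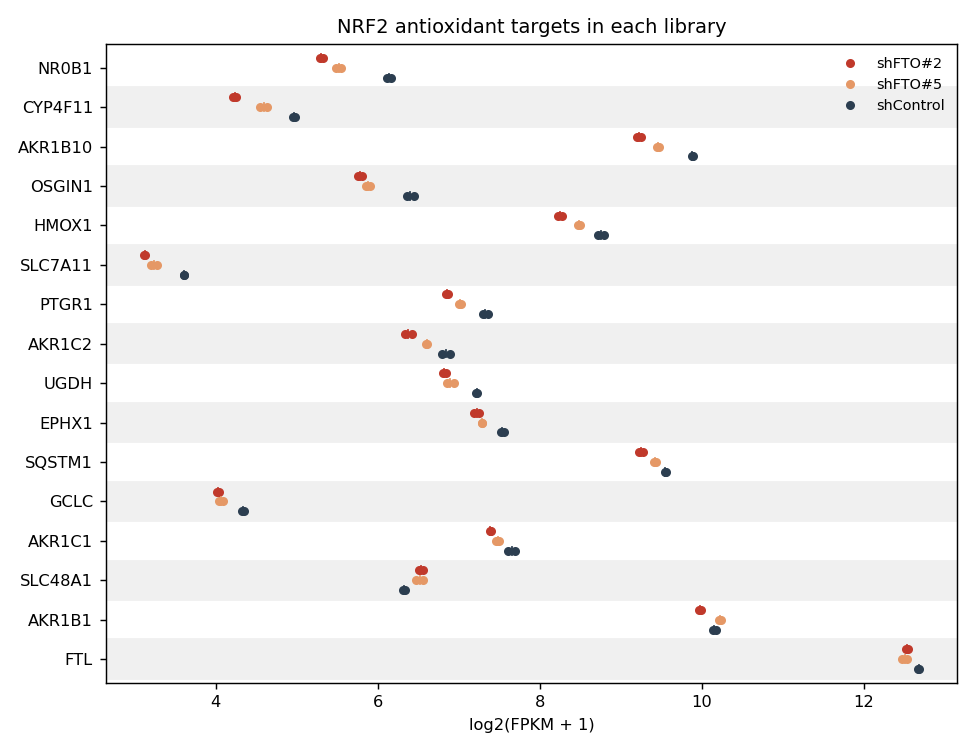
Level of re-matched NRF2 antioxidant genes in each library as log2(FPKM + 1) (x axis), 1 row per gene ordered by size of change; within a row shFTO#2 is on top, then shFTO#5, then shControl. In all rows but that of SLC48A1 both shFTO#2 points lie left of both shControl points, and in 8 rows from NR0B1 to AKR1B1 shFTO#2 was also lower than shFTO#5 by limma.

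RefSeq held a promoter (250 bases before to 50 after the annotated start, GRCh38.p14) for 439 of the 560 genes. The NRF2 motif TGACNNNGC and the AP-1 motif TGANTCA were searched on both strands; an AP-1 match can overlap an NRF2 match. Of the 13 NRF2 list members with a promoter, 0 held TGACNNNGC and 2, OSGIN1 and CYP4F11, held TGANTCA, against 13.3% and 7.71% of all 35116 promoters. No match says only that the letters are not in this window. The promoters of these 2 fallen genes and of PLAUR, the 1 of the 15 largest rises with the AP-1 letters, are shown with TGANTCA in capitals, each 5′ to 3′ on the strand of the gene, at chr16:83952990-83953289 (plus strand), chr19:15934480-15934779 (minus strand) and chr19:43670120-43670419 (minus strand).
OSGIN1: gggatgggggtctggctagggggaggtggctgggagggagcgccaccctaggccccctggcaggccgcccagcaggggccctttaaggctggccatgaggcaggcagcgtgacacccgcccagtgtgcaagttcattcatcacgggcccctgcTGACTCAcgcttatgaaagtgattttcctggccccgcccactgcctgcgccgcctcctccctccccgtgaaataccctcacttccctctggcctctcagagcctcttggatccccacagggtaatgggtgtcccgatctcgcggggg
CYP4F11: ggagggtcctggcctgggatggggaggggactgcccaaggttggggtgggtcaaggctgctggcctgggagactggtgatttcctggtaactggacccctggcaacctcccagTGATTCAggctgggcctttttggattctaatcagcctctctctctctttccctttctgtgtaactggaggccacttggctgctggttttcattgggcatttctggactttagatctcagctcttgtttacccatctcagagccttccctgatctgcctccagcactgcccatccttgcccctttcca
PLAUR: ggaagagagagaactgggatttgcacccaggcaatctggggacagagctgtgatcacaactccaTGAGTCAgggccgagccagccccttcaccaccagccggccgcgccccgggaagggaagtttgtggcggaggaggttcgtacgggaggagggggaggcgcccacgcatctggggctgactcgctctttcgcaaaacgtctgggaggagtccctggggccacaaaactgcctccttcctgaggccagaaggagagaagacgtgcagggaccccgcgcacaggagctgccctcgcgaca
The AP-1 letters thus stood in the promoters of genes that moved in opposite directions. Among all re-matched genes with a promoter, they were in 5.61% of those that were higher and in 5.19% of those that were lower, and TGACNNNGC was in 12.3% of each. The median GC content was 66.0% for the promoters of higher genes, 69.0% for those of lower genes and 58.7% for all promoters.

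ATF4 targets of the integrated stress response fell: 7 of 7 re-matched members were lower, with a median log2 change of -0.30, also under both other scalings. NUPR1, a stress-induced chromatin-binding protein, had 144 and 145 FPKM with shFTO#2 against 211 and 221 with shControl (-0.57 ± 0.03). SLC7A11 had 7.75 and 7.67 FPKM against 11.2 and 11.2 and belongs to the NRF2 list as well. PHGDH and PSAT1, which act early in serine synthesis, fell by 0.30 ± 0.03 and 0.21 ± 0.03, and CBS, which makes cystathionine, by 0.33 ± 0.05. For PHGDH the libraries read 87.7 and 89.2 FPKM against 107 and 112. SLC7A5, the leucine transporter, and its partner SLC3A2 fell by 0.21 ± 0.03 and 0.17 ± 0.03. Of the 6 serine, glutamine and amino acid enzymes, 5 fell, among them ASS1, argininosuccinate synthase, with 109 and 112 FPKM against 138 and 145 (-0.35 ± 0.03), and ODC1, the polyamine enzyme, had 0.19 ± 0.03 but did not pass after centring (0.04, adjusted p = 0.286, limma). ER chaperones went the other way: 7 of 7 rose (median log2 change 0.20) and all were higher under both other scalings, though only 2 of 7 passed limma's threshold after centring and 6 of 7 after quantile normalization. Of these, MANF, a secreted ER stress protein, had 61.4 and 61.9 FPKM against 48.5 and 50.004 (0.32 ± 0.03), PDIA4, a disulfide isomerase, 96.4 and 96.1 against 79.3 and 83.7 (0.24 ± 0.03), and HSPA5, the main ER chaperone, 243 and 248 against 219 and 222 (0.15 ± 0.02). HSPA5 did not pass after centring (0.00, adjusted p = 0.947, limma).

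Cell cycle genes were higher with small changes. Each of the 12 re-matched genes of G2/M and mitosis rose (median log2 change 0.20), with 11 of 12 higher after centring, of which 2 passed limma's threshold, and 12 of 12 after quantile normalization, of which 6 passed. PLK1, a mitotic kinase, had 41.1 and 43.2 FPKM with shFTO#2 against 36.3 and 35.9 with shControl (0.22 ± 0.04). CCNB1, cyclin B1, had 106 and 103 FPKM against 92.2 and 87.7 (0.22 ± 0.03). These steps were small beside that of RRM2, and after centring neither PLK1 (0.07, adjusted p = 0.179, limma) nor CCNB1 (0.07, adjusted p = 0.131) passed. TUBA1C, an alpha-tubulin, rose by 0.29 ± 0.03, KIF2C, a microtubule depolymerase, by 0.27 ± 0.04, CDC20, the anaphase activator, by 0.21 ± 0.03, and MKI67, the proliferation marker, by 0.13 ± 0.05. CDC20 and MKI67 passed under neither other scaling, with adjusted p of 0.283 and 0.652 after quantile normalization. All 8 DNA replication and G1/S genes rose (median 0.25), with 5 of 8 higher after centring (3 past the threshold) and 8 of 8 after quantile normalization (5 past it). CCND1, cyclin D1, had 99.4 and 101 FPKM against 73.8 and 76.8 (0.41 ± 0.03), DNMT1, the maintenance DNA methyltransferase, 58.04 and 59.4 against 45.1 and 45.2 (0.37 ± 0.03), and CDK6, the partner kinase of cyclin D, 8.96 and 8.92 against 7.39 and 6.96 (0.28 ± 0.05). CDK6 missed the threshold after centring (0.13, adjusted p = 0.0635, limma) and after quantile normalization (0.13, adjusted p = 0.0514). The helicase subunits MCM6, MCM7 and MCM4 had 0.21 ± 0.04, 0.15 ± 0.03 and 0.11 ± 0.03; none of them passed after centring, and MCM7 alone passed after quantile normalization.

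The promoters of the re-matched G2/M genes often held the same letters. Of 11 with a RefSeq promoter, 9 held CCAAT and 7 held TTTGAA, the letters of the cell cycle homology region, against 34.6% and 15.2% of all promoters and 35.8% and 12.1% of the 439 re-matched ones. All 7 with TTTGAA also held CCAAT, which was so for 5.90% of all promoters; the motifs were searched on both strands and can overlap by 1 base, as they do in CDCA8. In 4 of the genes both motifs began within 100 bases before the start. Those 4 are printed with CCAAT and TTTGAA, or their complements ATTGG and TTCAAA, in capitals: PLK1 at chr16:23678639-23678938 (plus strand), CDC20 at chr1:43358731-43359030 (plus strand), CDCA8 at chr1:37692266-37692565 (plus strand) and MKI67 at chr10:128126374-128126673 (minus strand).
PLK1: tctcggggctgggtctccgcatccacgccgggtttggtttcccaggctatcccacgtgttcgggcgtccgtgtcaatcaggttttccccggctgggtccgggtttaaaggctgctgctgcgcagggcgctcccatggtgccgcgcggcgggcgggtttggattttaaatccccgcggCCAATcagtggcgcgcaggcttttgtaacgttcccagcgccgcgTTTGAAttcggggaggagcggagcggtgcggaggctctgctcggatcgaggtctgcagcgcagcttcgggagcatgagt
CDC20: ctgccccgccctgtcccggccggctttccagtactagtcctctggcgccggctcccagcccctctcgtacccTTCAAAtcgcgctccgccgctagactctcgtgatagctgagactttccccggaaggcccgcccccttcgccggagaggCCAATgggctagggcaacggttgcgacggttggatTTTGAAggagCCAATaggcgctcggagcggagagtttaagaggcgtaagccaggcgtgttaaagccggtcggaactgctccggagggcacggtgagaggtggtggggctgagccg
CDCA8: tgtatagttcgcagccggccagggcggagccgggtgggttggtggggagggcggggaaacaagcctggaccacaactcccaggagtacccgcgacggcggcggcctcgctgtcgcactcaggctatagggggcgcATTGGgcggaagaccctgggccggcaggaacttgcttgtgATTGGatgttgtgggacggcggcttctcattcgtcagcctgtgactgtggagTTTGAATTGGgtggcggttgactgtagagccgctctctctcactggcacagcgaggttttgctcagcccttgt
MKI67: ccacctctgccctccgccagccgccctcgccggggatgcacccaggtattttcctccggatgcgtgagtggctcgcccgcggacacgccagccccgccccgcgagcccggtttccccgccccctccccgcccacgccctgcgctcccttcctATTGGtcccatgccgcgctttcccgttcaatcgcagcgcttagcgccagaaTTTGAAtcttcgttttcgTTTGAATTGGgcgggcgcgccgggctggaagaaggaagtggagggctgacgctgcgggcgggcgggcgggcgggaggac
In the PLK1 promoter CCAAT began 73 bases and TTTGAA 29 bases before the start, and in that of CDCA8, which encodes borealin of the chromosomal passenger complex, the TTTGAA match began 23 bases before it. These are matches of letters, given without a test, and KIF2C and TACC3 were higher with neither motif in the window. The list groups genes by pathway, so the shared letters can belong to that class of genes and show no effect of the knockdown. Listed members without a re-matched value were not compared.

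Cytosolic ribosomal protein genes were uniformly and slightly higher: 33 of 33 with a median log2 change of 0.16 on the deposited scaling, but 19 of 33 after centring and 28 of 33 after quantile normalization. Under the latter RPL35, RPL35A, RPL6 and RPS4X stood at 0, the value of an unchanged rank. The median of all 560 genes was 0.17, so the list lay at the middle of the re-matched genes, and 2 of 33 passed limma's threshold after centring and 15 of 33 after quantile normalization. RPL38 had 235 and 215 FPKM with shFTO#2 against 176 and 181 with shControl (0.33 ± 0.04), RPS3A 139 and 131 against 111 and 114 (0.26 ± 0.04), and RPS18 849.9 and 827 against 706 and 731 (0.22 ± 0.03). RPL6 had the smallest change of the list (0.10 ± 0.02). After centring, which subtracts the same 0.15 from every change, RPS18, RPL6, RPL35 (0.14 ± 0.04) and RPL7A (0.15 ± 0.02) did not pass in either direction. Many ribosomal protein genes have processed pseudogenes, and no source used here says how the counting treated these. All 5 translation factors were higher, among them EIF4EBP1, the repressor of cap-dependent initiation (0.17 ± 0.03), EIF3D (0.16 ± 0.03) and EEF1A1 (0.09 ± 0.03), though after centring 1 of 5 passed limma's threshold, and none of these 3. Heat shock chaperones had 8 of 9 higher (6 after centring and 7 after quantile normalization, with 3 and 6 past the threshold), with HSPE1 at 0.33 ± 0.06 and HSPA8 at 0.25 ± 0.04, and CRYAB, a small heat shock protein, fell by 0.25 ± 0.04. The 4 CCT chaperonin subunits rose by 0.15 to 0.18 (3 of 4 higher and none past the threshold after centring).

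Targets of hypoxia-inducible factors were mostly higher: 10 of 11, with a median log2 change of 0.22, but 6 of 11 after centring (5 past limma's threshold) and 9 of 11 after quantile normalization (7 past it). TGFA, an autocrine growth factor of VHL-deficient cells, had 21.9 and 21.96 FPKM with shFTO#2 against 13.5 and 14.5 with shControl (0.61 ± 0.05). ANGPTL4, a lipoprotein lipase inhibitor, had 16.1 and 16.2 FPKM against 11.3 and 11.6 (0.46 ± 0.05). EPAS1, which encodes the factor subunit HIF-2alpha, had 8.25 and 8.29 FPKM against 6.35 and 6.35 (0.34 ± 0.05). All 3 were clear of the control libraries in FPKM, as all 560 genes were, and passed limma's threshold under both other scalings. NDRG1, a hypoxia-induced stress gene, was 537 and 532 FPKM against 461 and 460.1 (0.22 ± 0.02), and CA12, a carbonic anhydrase, 95.3 and 94.005 against 85.4 and 87.99 (0.13 ± 0.03). NDRG1 did not pass after centring, and CA12 passed under neither other scaling. IGFBP3, which binds insulin-like growth factors, was the 1 member that fell, at 181 and 189.6 FPKM against 214 and 234 (-0.27 ± 0.04). Of the glycolysis and pentose phosphate list, 5 of 6 were higher as deposited, with HK1 at 0.19 ± 0.04 and PKM at 0.08 ± 0.02. After centring 2 of 6 were higher and after quantile normalization 3 of 6, and 0 and 1 of these passed limma's threshold. HK1 and ENO2 passed under neither other scaling. PKM and PGK1 (0.12 ± 0.02) did not pass after centring. Quantile normalization left both at 0, the value of an unchanged rank, so it could not decide for them. LDHA (0.11 ± 0.03) did not pass after centring (adjusted p = 0.433, limma).

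Adhesion and matrix genes rose. Of 13 genes of integrins and focal adhesions 12 were higher (median log2 change 0.29; 11 after centring, 9 of them past the threshold, and 12 after quantile normalization, 10 of them past it), and all 7 of the urokinase and matrix protease list (median 0.30) and all 9 of the S100 and annexin list (median 0.29) were higher under every scaling, though after centring 5 of 7 and 7 of 9 passed limma's threshold. ITGA3, a laminin-binding integrin, had 357 and 377 FPKM with shFTO#2 against 220.3 and 228 with shControl (0.71 ± 0.04). ITGB3, the beta chain of vitronectin receptors, had 11.4 and 11.2 FPKM against 6.36 and 7.67 (0.62 ± 0.07). CAV1, the caveolar coat protein, had 113 and 112 FPKM against 83.1 and 79.9 (0.46 ± 0.03). None of these libraries overlapped between shFTO#2 and shControl, which was so for all 560 genes. FN1, fibronectin, was the exception of the list, with 11.8 and 11.2 FPKM against 16.1 and 17.9 (-0.52 ± 0.06). TIMP1, an inhibitor of matrix metalloproteases, rose beside the proteases (0.29 ± 0.05). S100A2, a calcium-binding protein, had 268 and 261 FPKM against 190.0 and 193 (0.46 ± 0.03), and AHNAK2, a scaffold protein, 13.1 and 12.3 against 9.07 and 8.11 (0.51 ± 0.07). In the actin cytoskeleton list 9 of 10 were higher (8 after centring and 9 after quantile normalization, with 3 and 7 past the threshold), with KRT18, a keratin of simple epithelia, at 0.51 ± 0.04, MARCKSL1 at 0.48 ± 0.03, and MARCKS alone lower.

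Signalling lists were mixed or lower. Of 8 growth factor and receptor kinase genes 4 were higher (2 of them past the threshold under either other scaling) and 4 fell. FGFR2 fell as given above, FGFR3 by 0.38 ± 0.05 and ERBB3, a neuregulin receptor, by 0.50 ± 0.04, whereas EPHA2, an ephrin receptor, rose by 0.40 ± 0.04, and FGFR1 had 0.20 ± 0.03. FGFR1 passed under neither other scaling (0.05, adjusted p = 0.309, after centring and 0.06, adjusted p = 0.12, after quantile normalization, limma). For FGFR3 the libraries read 42.04 and 43.6 FPKM with shFTO#2 against 53.1 and 58.8 with shControl, and for FGFR1 61.7 and 61.03 against 52.4 and 54.3. Of 6 TGF-beta, BMP and SMAD targets 5 fell (median log2 change -0.38, the same count under both other scalings), including ID3, an inhibitor of helix-loop-helix factors, with 205 and 215 FPKM against 278 and 292 (-0.44 ± 0.04), its relatives ID4 (-0.33 ± 0.04) and ID1 (-0.22 ± 0.03), and the inhibitory SMAD6 (-0.42 ± 0.05). Of 8 Wnt and Notch genes 6 fell (7 lower under either other scaling, 6 of them past the threshold), with NOTCH3 at -0.54 ± 0.05 and the frizzled receptors FZD7 at -0.38 ± 0.07 and FZD5 at -0.37 ± 0.07, while the ligand WNT7B rose by 0.59 ± 0.04. Of 6 YAP and TEAD targets 4 fell, among them CRIM1 (-0.42 ± 0.04) and AJUBA (-0.34 ± 0.04), and NT5E, the ecto-nucleotidase CD73, rose by 0.58 ± 0.07. The 10 AP-1 and immediate early genes divided 5 to 5: FOSL1, IER3 (0.45 ± 0.05), PHLDA2 (0.48 ± 0.07), PHLDA1 (0.37 ± 0.05) and KLF10 (0.37 ± 0.04) rose, and JUND, EGR1 (-0.57 ± 0.06), IER5L (-0.54 ± 0.07), ZFP36L1 (-0.30 ± 0.03) and ZFP36L2 (-0.26 ± 0.05) fell. Of 5 NF-kB targets and cytokines 3 rose, including LIF (0.34 ± 0.04), and 2 fell, including the chemokine CX3CL1 (-0.50 ± 0.05).

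Transport, lipid and lysosomal genes were mostly lower, as were genes of the renal tubule. Of 17 transporters 12 fell (median log2 change -0.30, the same count under both other scalings), among them ABCC6, an efflux pump (-0.48 ± 0.08), and SLCO4C1, which carries organic anions in the proximal tubule, with 9.44 and 9.17 FPKM with shFTO#2 against 14.2 and 13.3 with shControl (-0.52 ± 0.05). Of 6 renal tubule and nephron lineage genes 5 fell (median -0.32): PAX2, a nephron transcription factor, had 5.39 and 5.78 FPKM against 7.80 and 7.60 (-0.40 ± 0.05), and MME, neprilysin, 5.33 and 4.92 against 7.14 and 6.49 (-0.35 ± 0.06). PAX8, the lineage marker of renal carcinoma, rose, at 99.3 and 94.1 FPKM against 79.3 and 76.4 (0.31 ± 0.04). The paired box genes thus moved in opposite directions. The shFTO#2 and shControl libraries overlapped in neither, as in none of the 560 genes. Of 8 lipid genes 5 fell, with SCD, the stearoyl-CoA desaturase, at 31.5 and 31.7 FPKM against 43.4 and 43.2 (-0.44 ± 0.04) and SREBF1, which activates lipid synthesis genes, at 31.3 and 35.04 against 41.8 and 43.8 (-0.36 ± 0.05). Of 5 autophagy and lysosome genes 4 fell, among them SQSTM1, the cargo receptor p62, with 595 and 616 FPKM against 744 and 756 (-0.31 ± 0.03), ULK1, the initiating kinase (-0.27 ± 0.05), and NEU1, a lysosomal sialidase (-0.27 ± 0.06). Among splicing factors 4 of 5 rose (3 after centring), with SNRPD3 at 0.43 ± 0.03 and SF3B3 at 0.35 ± 0.04, and PTBP3 fell by 0.46 ± 0.06. Lists with under 5 re-matched members had 2 of 2 nucleolar ribosome biogenesis genes, 2 of 2 p53 targets and apoptosis regulators, 2 of 2 nuclear transport genes (1 after centring), 1 of 1 proteasome genes, 3 of 4 chromatin and oncofetal genes and 4 of 4 housekeeping genes (2 after centring and 3 after quantile normalization) higher. FTO was the only re-matched member of the m6A list, and the lists of the tricarboxylic acid cycle and oxidative phosphorylation, of aminoacyl-tRNA synthetases and of interferon-stimulated genes had 0.

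**Figure D4:**
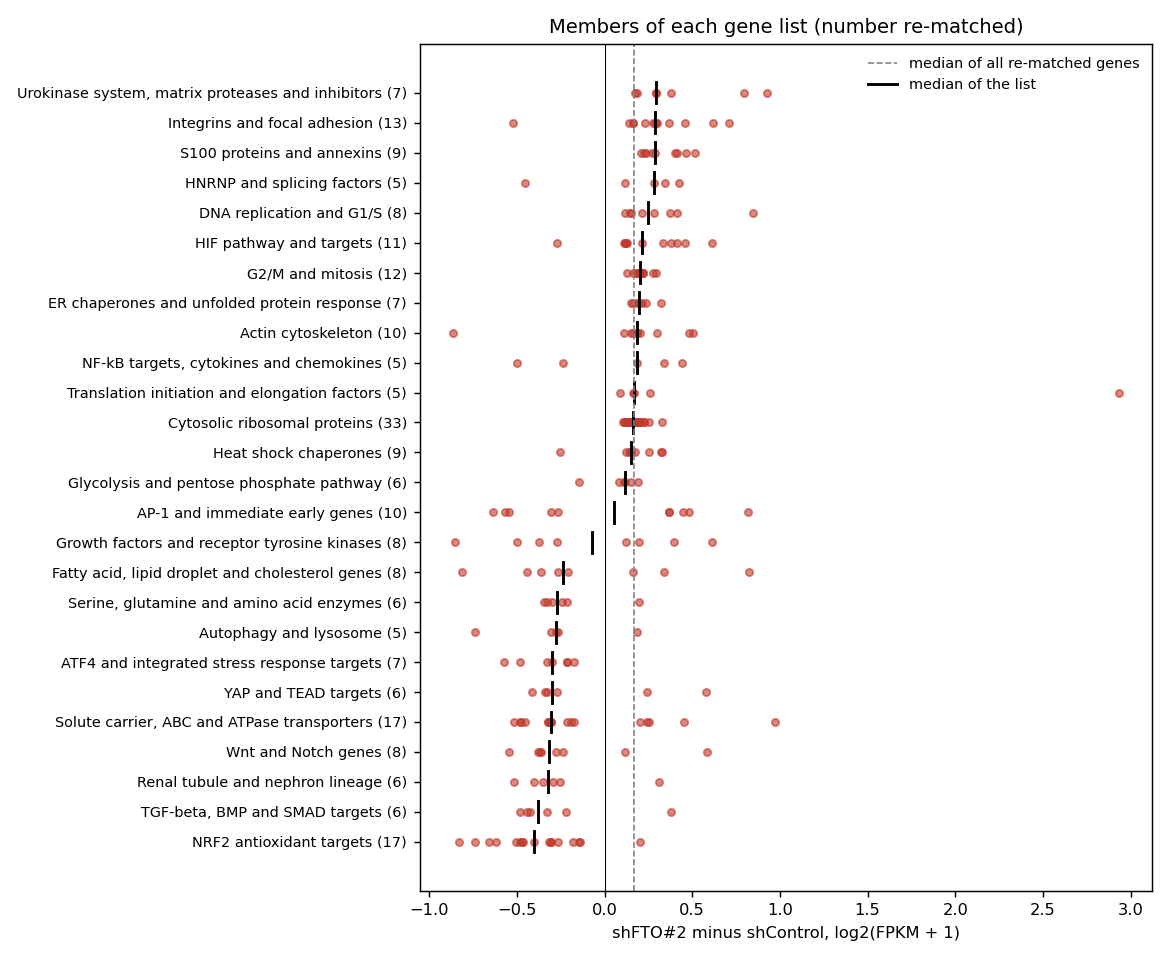
Log2 change, shFTO#2 minus shControl on the log2(FPKM + 1) scale (x axis), of each re-matched member (points) of the gene lists with at least 5 re-matched members, ordered by list median (black bar); the dashed line is the median of all 560 genes, 0.17. The urokinase list has the highest median (0.30) and the NRF2 list the lowest (-0.40), and TUFM is the point at 2.93.

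The 10 most abundant re-matched genes moved little. After FTL they were led by RPL35, with 1665 and 1658 FPKM with shFTO#2 against 1498 and 1522 with shControl, PKM, pyruvate kinase, with 1551 and 1565 against 1449 and 1490.1, and EEF1A1 with 1337 and 1290.1 against 1262 and 1206. LGALS1, galectin-1, rose most among them, with 1246 and 1247 FPKM against 994 and 1052 (0.28 ± 0.04). RN7SL1, the RNA of the signal recognition particle, fell most, with 1208 and 1135 FPKM against 1412 and 1378 (-0.25 ± 0.04); it has many near-identical copies, so its count is uncertain. Without single libraries, the calls of PKM (0.06, adjusted p = 0.0759, without shControl replicate 1, and 0.08, adjusted p = 0.0509, without shFTO#2 replicate 2), EEF1A1 (0.06, adjusted p = 0.14, without shControl replicate 2, and 0.06, adjusted p = 0.107, without shFTO#2 replicate 1) and LDHA (0.08, adjusted p = 0.0502, without shControl replicate 2) were lost by limma.

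The hairpins could be compared directly, with the control libraries used only for the spread. By limma, 34 of the 560 genes (6.07%) were higher and 43 (7.68%) lower with shFTO#2 than with shFTO#5, 13.8% in all, and 166 had an unadjusted p under 0.05. After centring the split was 26 higher and 83 lower, with 65 of the 77 genes still among them. The libraries of the 2 hairpins did not overlap in 329 genes (58.8%). These counts rest on both shFTO#5 libraries: without shFTO#5 replicate 1 no gene passed (0 called, 113 at an unadjusted p under 0.05, lowest adjusted p = 0.059), and without shFTO#5 replicate 2 only 6 did. Without shFTO#2 replicate 1 there were 71 calls and without shFTO#2 replicate 2 there were 55, of which 48 and 47 were also called with all libraries. On whole reads with voom there were 74 calls, 69 of them the same.

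MARCKS differed most, and on the deposited scaling CSF1 and AKR1B1 were the 2 genes whose direction against shControl was not the same with the hairpins. MARCKS had 25.04 and 28.1 FPKM with shFTO#2, 36.3 and 37.8 with shFTO#5 and 47.1 and 51.1 with shControl. The shFTO#5 libraries lay between the others, and the difference between hairpins was -0.47 ± 0.06 (SE), adjusted p = 0.00454 by limma. CSF1, the macrophage growth factor, had 25.7 and 27.2 FPKM with shFTO#2, 36.9 and 34.95 with shFTO#5 and 31.1 and 31.5 with shControl. It was thus lowest with shFTO#2 and highest with shFTO#5 (-0.43 ± 0.05, adjusted p = 0.00261). AKR1B1, aldose reductase, had 1015 and 999.9 FPKM with shFTO#2, 1189 and 1203 with shFTO#5 and 1127 and 1152 with shControl, again lowest with shFTO#2 (-0.25 ± 0.02, adjusted p = 0.00261). Against shControl the values stood at -0.24 ± 0.05 with shFTO#2 and 0.19 ± 0.05 with shFTO#5 for CSF1, and at -0.18 ± 0.02 and 0.07 ± 0.02 for AKR1B1, and both comparisons share the control libraries. After centring AKR1B1 stood at -0.33 against shControl with shFTO#2, and its difference between the hairpins was -0.28. On that scaling it was thus lower with either hairpin than with shControl.

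Of the 43 genes lower with shFTO#2 than with shFTO#5 (7.68% of the 560), 8 belonged to the NRF2 list. They were the only members of the 17 that passed the test of the difference. As given above, calls between the hairpins rest on both shFTO#5 libraries, and this holds for these 8. Besides AKR1B1 they were CYP4F11 (-0.36 ± 0.04), HMOX1 (-0.23 ± 0.03), AKR1B10 (-0.23 ± 0.03), AKR1C2 (-0.23 ± 0.04), NR0B1 (-0.21 ± 0.04), SQSTM1 (-0.18 ± 0.03) and PTGR1 (-0.16 ± 0.03). HMOX1, for one, had 298 and 309 FPKM with shFTO#2, 354 and 359.9 with shFTO#5 and 422 and 441 with shControl, and CYP4F11 had 17.96 and 17.6 with shFTO#2, 23.8 and 22.4 with shFTO#5 and 30.004 and 30.6 with shControl. In both, shFTO#5 again lay between shFTO#2 and shControl. After quantile normalization AKR1C2 (adjusted p = 0.133, limma), PTGR1 (0.0908) and SQSTM1 (0.0856) did not pass, and the other 5 did. For FTO, the common target, the test of the difference was not passed, as given above.

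Other genes rose less with shFTO#2 than with shFTO#5. FA2H, a fatty acid hydroxylase, had 14.7 and 16.4 FPKM with shFTO#2, 19.99 and 18.9 with shFTO#5 and 11.5 and 11.5 with shControl (-0.31 ± 0.06, adjusted p = 0.0145, limma). IER3, a stress-induced early gene, differed by -0.23 ± 0.05, NCEH1, a cholesterol ester hydrolase, by -0.23 ± 0.06, and FOSL1 by -0.22 ± 0.04. PLK1 (-0.15 ± 0.04) and CCNB1 (-0.14 ± 0.03) were also less high. DNMT3B (-0.29 ± 0.07) and DSC2 (-0.28 ± 0.07) fell more with shFTO#2. After quantile normalization IER3, NCEH1, CCNB1, DNMT3B and DSC2 missed the threshold for this difference (limma, adjusted p of 0.0615 for CCNB1 to 0.131 for DSC2).

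Among genes higher with shFTO#2 than with shFTO#5, SLC9A3 and LRP2, both of the proximal tubule, had fallen less. SLC9A3, a sodium-proton exchanger of the proximal tubule, had 23.9 and 25.6 FPKM with shFTO#2, 19.98 and 19.5 with shFTO#5 and 30.5 and 31.99 with shControl (0.31 ± 0.05, adjusted p = 0.00746, limma). LRP2, the endocytic receptor megalin, had 3.82 and 3.36 FPKM with shFTO#2, 2.86 and 2.66 with shFTO#5 and 4.98 and 4.27 with shControl (0.29 ± 0.08, adjusted p = 0.0449). The LRP2 difference did not pass with a pseudocount of 5 (adjusted p = 0.0532, limma) or after quantile normalization (0.119). Its call was also lost without shFTO#2 replicate 1 (difference 0.21), without shFTO#5 replicate 1 (0.33) and without shFTO#5 replicate 2 (0.25). DNAJC22, a J-domain protein, differed by 0.28 ± 0.06, ERBB3 by 0.25 ± 0.04 and BAI1, an adhesion receptor, by 0.24 ± 0.06; all 5 lay below both control libraries with either hairpin. HMGA2 had 8.33 and 8.11 FPKM with shFTO#2, 6.43 and 6.56 with shFTO#5 and 3.92 and 4.36 with shControl, so its rise was larger with shFTO#2 (0.30 ± 0.06, adjusted p = 0.0135). MARCKSL1 (0.29 ± 0.03), TXNIP, an inhibitor of thioredoxin (0.24 ± 0.06), and PLS1, an actin bundler (0.23 ± 0.05), likewise rose more with shFTO#2. After quantile normalization the differences of HMGA2 (0.21, adjusted p = 0.0595, limma), TXNIP (adjusted p = 0.122), BAI1 (0.0856) and DNAJC22 (0.0731) did not pass. MARCKSL1 and MARCKS, paralogs of 1 family, thus differed between the hairpins in opposite directions.

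**Figure D5:**
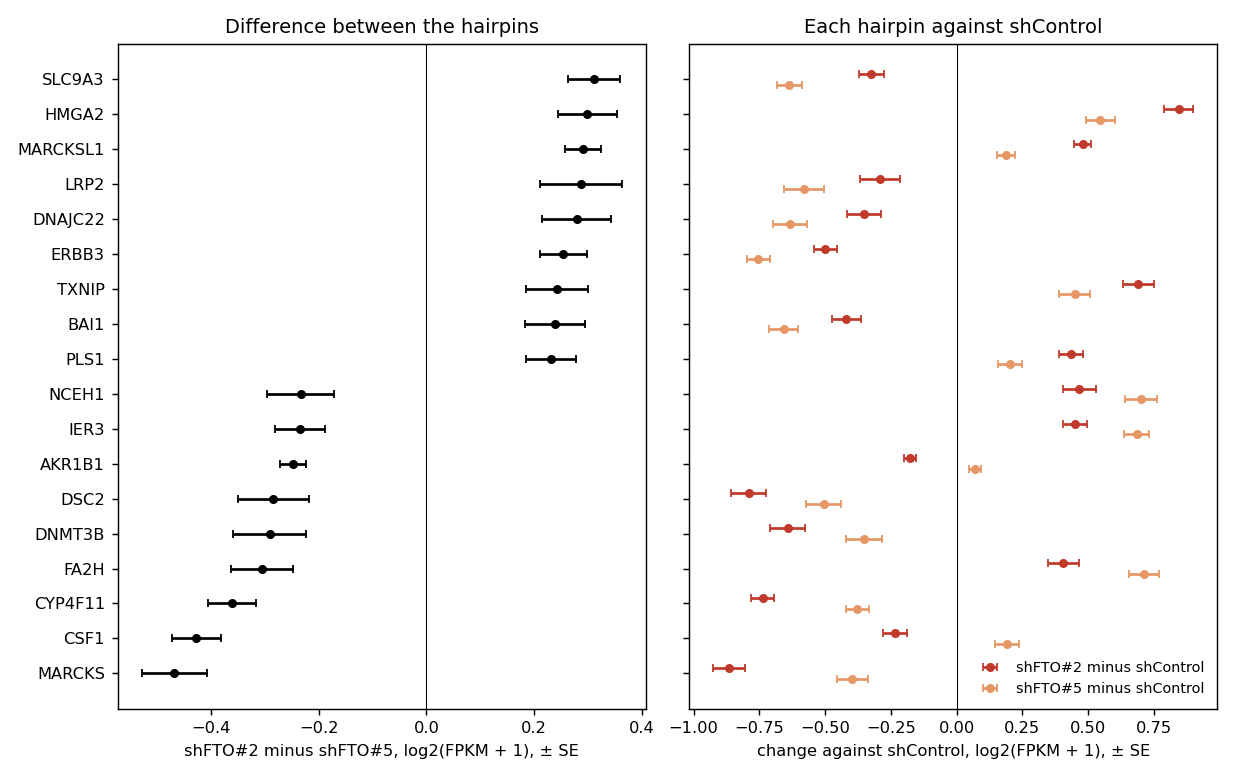
Left, difference between shFTO#2 and shFTO#5 on the log2(FPKM + 1) scale with SE for genes among the 10 furthest in each direction past limma's threshold; right, change of the same genes against shControl with shFTO#2 (upper point of each pair) and shFTO#5 (lower point), with SE. MARCKS has the largest difference at -0.47, and on the deposited scaling shown here CSF1 and AKR1B1 lie on opposite sides of 0 in the right panel.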

How the data were processed

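Total RNA of 6 UMRC2 libraries was sequenced. The submitters' processing notes name hg38 as a build and STAR, RSEM and Trim Galore 0.4.2 as tools, with no role or order; no source used here gives the annotation release, the strand setting or the differential test. The authors deposited FPKM per library with gene lengths, per the file headers. The authors also deposited log2 fold changes with raw and adjusted p-values, per the file headers; the log2 values ran control over knockdown when set against FPKM and were turned round here. The re-matched members and the gene lists were chosen with earlier results of these data known.

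Multiplying FPKM by length and library total gave back whole reads, and the matching described above used these (tolerance 1e-05). Tested on simulated data with 766 entries, of which 600 came from listed genes, it placed 600 and put 0 in a wrong place, and both library totals were recovered. In the simulation the entries of unlisted genes had lengths and places drawn at random. Its 0 is therefore no error rate for the real matching, where HDAC9 was set aside. A match was also dropped where its ratio lay over 1 on the log2 scale from the authors' value, a step added after the values were seen. Of the 560 genes, 553 were found in GENCODE by identifier, and 31 names differ from current symbols; names are printed as deposited.

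Limma 3.58.1 in R 4.3.3 was fitted with an intensity trend to log2(FPKM + 1) over the 560 genes and the 3 groups, without a block, keeping genes that reached 1 FPKM in 2 or more libraries. Contrasts were shFTO#2 minus shControl, shFTO#5 minus shControl and shFTO#2 minus shFTO#5, with Benjamini-Hochberg adjustment over all 560 genes. On simulated FPKM the fit of shFTO#2 against shControl called 49 of 50 genes changed by 0.3 in log2, 50 of 50 changed by 0.6 and 11 of 359 unchanged genes. For shFTO#2 against shFTO#5 it called 50 of 50 at either size and 6 of 359 unchanged genes. The spread came from genes chosen for a difference, so the calls against shControl serve as ranks and errors. FTO was also tested by an exact permutation test over libraries.

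Replicates were distinct libraries: their chi-square per degree of freedom, near 1 under counting noise alone, was 4.55 for shFTO#2, 2.74 for shFTO#5 and 4.14 for shControl. Genes named are FTO, the 15 largest rises and falls, the 10 largest differences between the hairpins in each direction, genes whose direction differed between hairpins, the 10 most abundant genes and up to 4 members of each list with at least 5; the other list members and the promoters named were chosen after their values were seen. Some genes that this rule names are not reported here. Promoters are RefSeq's on GRCh38.p14. In all, 17 alternative settings were run.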

Additional observations from a re-analysis of the deposited data

Results flagged for a closer look

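The effect of the 2 hairpins differed by the direct test in part of the re-matched genes, all of them genes the authors called with both hairpins: 34 genes were higher and 43 lower with shFTO#2 than with shFTO#5 by limma at an adjusted p under 0.05. Both counts were 0 without shFTO#5 replicate 1, and 1 gene was higher and 5 lower without shFTO#5 replicate 2.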

How the results depend on the processing

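Calls of shFTO#2 against shControl numbered 347 to 351 higher and 206 to 208 lower when any 1 library was left out. Centring each library gave 192 higher, and, by taking the same 0.15 from every change, turned the sign of EEF1A1 (-0.0600), LDHA (-0.0392), PGK1 (-0.0324), PKM (-0.0659), RPL35 (-0.0121) and RPL7A (-0.00363), none of which then passed in either direction. Between the hairpins, leaving out 1 library gave 0 to 42 higher and 0 to 38 lower; centring gave 83 lower, and quantile normalization 19 higher and 23 lower. The replicate block gave 52 higher and 53 lower between the hairpins, and left 352 higher and 208 lower against shControl. Deviations of same-numbered libraries correlated at 0.22 between shFTO#2 and shControl, 0.12 between shFTO#2 and shFTO#5 and 0.03 between shFTO#5 and shControl. These values do not settle whether replicate numbers pair the samples, and the main fit took no account of pairing. Other tolerances on whole reads matched 561 genes each, and requiring a distance under 0.15 from the authors' log2 value left 519. Keeping HDAC9, chosen after seeing the data, gave 35 higher and 43 lower between the hairpins. Depth was at least 82 reads per gene and library.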

Other observations

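Of the 766 shFTO#2 entries in the authors' deposited table, 206 were left without a gene. Of these, 67 were higher than shControl and 139 lower (32.5% higher), against 62.9% higher among the 560 re-matched genes. Their median FPKM was 17.1, against 42.1 for the re-matched genes, and 5 of them (2.43%) had an authors' log2 change over 0.5 in size, against 62 (11.1%). The largest changes among them were -0.58 and 0.52 in the authors' deposited table. The falls described above are a smaller share of the authors' calls than the rises are: 208 of 347 lower calls and 352 of 419 higher calls have a name here.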
